A study of Arabidopsis thaliana with 8 samples.

Results

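The fatty acyl reductases (FAR) of Arabidopsis thaliana are a family of 8 genes, FAR1 to FAR8, in which FAR2 is also named MS2 and FAR3 is also named CER4. Members were chosen by locus name and not by their measured values, though earlier results of these data were known. All 8 were found among the 30361 features of the arrays, with 1 feature each. They are AT5G22500 (FAR1), AT3G11980 (MS2), AT4G33790 (CER4), AT3G44540 (FAR4), AT3G44550 (FAR5), AT3G56700 (FAR6), AT5G22420 (FAR7) and AT3G44560 (FAR8). Their levels were measured in leaves of 6-week-old plants on soil, in 4 biologically independent RNA samples of line 57, which carries DGTT2, and 4 of the wild type (WT). DGTT2 is a Chlamydomonas gene for an acyltransferase that adds the last acyl chain to triacylglycerol. All DGTT2 samples came from this 1 line, so what the transgene does and what else sets the line apart cannot be told apart. The sources used here do not give the promoter that drives the transgene, and the algal transcript had no feature on the arrays. The comparison bears on whether leaf transcripts of surface lipid synthesis differ in a line made to move carbon from surface lipids into triacylglycerol.

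Fatty acyl reductases use NADPH to turn activated fatty acids into primary fatty alcohols. The alcohols go into the wax that covers leaves and stems, into suberin, the lipid barrier of roots, seed coats and wounds, and into the wall of pollen. Acyl-CoA, the substrate of most members, is also what diacylglycerol acyltransferases use to make oil. In Arabidopsis CER4 makes the very-long-chain alcohols of cuticular wax. FAR1, FAR4 and FAR5 make alcohols of suberin, with FAR1 making the longest chains and FAR5 the shortest, and they are known to respond to wounding. MS2 acts in the tapetum of the anther, where it supplies the outer wall of pollen, and FAR6 is an enzyme of the plastid.

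The 8 arrays, each of 1 sample, lay on 2 slides, each with 2 of either genotype. Correlations between arrays across features were 0.988 to 0.995. They mostly reflect differences in level between genes and do not tell how far the arrays differed. DGTT2 arrays held positions 3 and 4 of each slide and WT arrays positions 1 and 2, so the place on the slide and the genotype cannot be told apart. The 6 leaf mesophyll markers were bright in every array, with means per array of 15.68 to 15.82 in DGTT2 and 15.69 to 15.76 in WT on the log2 scale. These means lay near the highest value of the arrays, 15.99, where differences may be understated. The 6 root endodermis markers averaged 6.18 to 6.52 in DGTT2 and 6.00 to 6.43 in WT, and the 6 tapetum and pollen markers 6.44 to 6.60 in DGTT2 and 6.26 to 6.62 in WT. No detection calls were used here, so the 4414 pseudogene loci served as a guide to dim signal, with a median level of 5.95 and quartiles of 5.38 and 6.89. RNA came from whole leaf tissue, so fewer cells of a type and less RNA per cell cannot be told apart.

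No FAR gene passed the test between DGTT2 and WT leaves. At an adjusted p under 0.05 (limma, Benjamini-Hochberg over all features), 0 of the 8 members passed, where 0.0725% of all features did. At an unadjusted p under 0.05 (limma) 1 member did, FAR5, where 10.5% of all features did. FAR5 was also the only member whose genotypes did not overlap, with every DGTT2 array above every WT array. Over all features, 5.64% did not overlap in either direction, 2.31% with DGTT2 higher. Of the 8 members 6 had a higher mean in DGTT2, beside 49.7% of all features, and FAR1 and FAR8 had a lower one. The members' median log2 difference was 0.27, beside -0.001 for all features. Of the members with a higher mean in DGTT2, MS2, FAR4, FAR6 and FAR7 were dim. Family means per array overlapped, at 7.15 to 7.34 in DGTT2 and 6.70 to 7.37 in WT. The lowest was in WT replicate 2 and the highest in WT replicate 4.

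**Figure D1:**
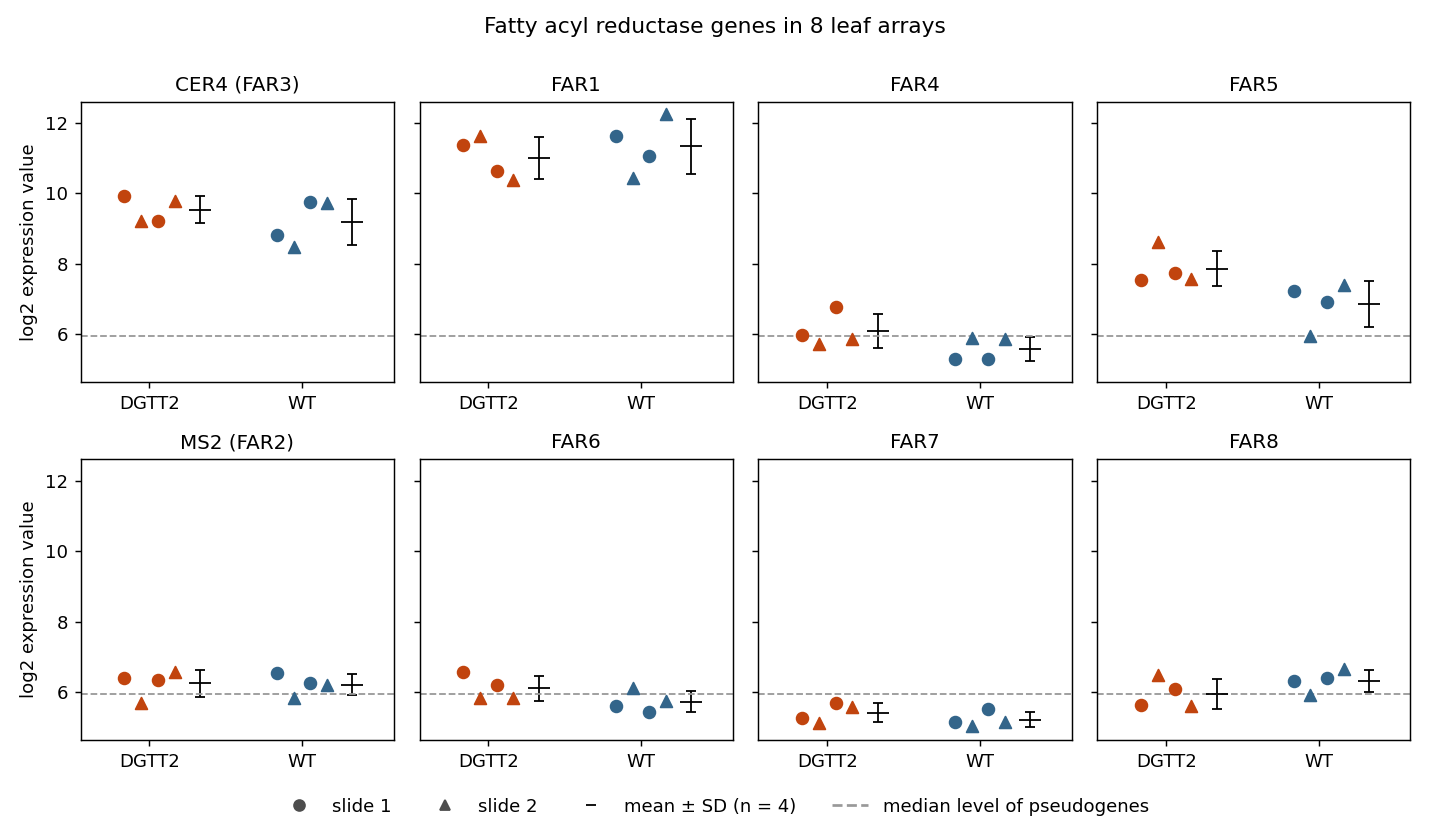
Log2 expression value of each FAR gene in every array, DGTT2 on the left and WT on the right of each panel, with circles for slide 1, triangles for slide 2, and the mean ± SD (n = 4) beside the points. CER4 and FAR1 lie well above the dashed line, the median level of pseudogenes (5.95), and FAR5 is the panel in which the DGTT2 points (7.56 to 8.61) all lie above the WT points (5.95 to 7.41).

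CER4, the wax alcohol enzyme, was measured clearly above the dim range, and its genotypes overlapped. Its log2 values were 9.94, 9.21, 9.21 and 9.79 in DGTT2 replicates 1 to 4, against 8.81, 8.48, 9.76 and 9.72 in WT. WT replicates 1 and 2 were the lowest of the 8 arrays, while WT replicates 3 and 4 lay among the upper DGTT2 arrays. The means were 9.54 ± 0.38 in DGTT2 and 9.19 ± 0.64 in WT (SD, n = 4 each). The log2 difference of 0.35 had a 95% interval of -0.36 to 1.05 and did not pass (limma adjusted p = 0.779). It is an interval that holds both no difference and a 2-fold one. WT replicate 2 carried much of it, since without that array the difference was 0.11. On slide 1 alone the difference was 0.29 and on slide 2 it was 0.40.

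Among the suberin alcohol enzymes, FAR5 had the largest difference of the family. Its values were 7.56, 8.61, 7.74 and 7.57 in DGTT2, against 7.22, 5.95, 6.91 and 7.41 in WT. DGTT2 replicate 2 was the highest array and WT replicate 2 the lowest, and between the genotypes the closest arrays were DGTT2 replicate 1 and WT replicate 4. The means were 7.87 ± 0.50 in DGTT2 and 6.87 ± 0.65 in WT (SD, n = 4 each), a log2 difference of 0.999 (SE 0.34, 95% interval 0.23 to 1.76). It did not pass over all features (limma adjusted p = 0.327), and 220 features (0.725%) differed by as much or more in either direction. The difference was 0.58 on slide 1 and 1.41 on slide 2. It was 0.69 without WT replicate 2 and 0.75 without DGTT2 replicate 2, the smallest values with 1 array left out. No fold is given, since WT values reached down to the median level of pseudogenes, where log2 differences may be understated.

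Of the 6 root endodermis markers, 2 did not overlap between the genotypes with DGTT2 higher, as in FAR5, beside 2.31% of all features. These were CASP1 and CASP4, proteins of the Casparian strip, with CASP1 at 7.25 in DGTT2 and 6.42 in WT (adjusted p = 0.199, limma) and CASP4 at 5.89 and 5.65 in the same order. In all, 5 of the 6 markers had a higher mean in DGTT2, beside 49.7% of all features, and 0 passed. CASP2 was lower, at 6.87 in DGTT2 and 7.16 in WT. Their means ran from 5.35 to 7.25, in or near the range between the pseudogene quartiles, and their part in the FAR5 difference was not tested.

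FAR1 lay well above the dim range and showed no separation of the genotypes. Its values were 11.37, 11.64, 10.64 and 10.39 in DGTT2, against 11.63, 10.43, 11.05 and 12.24 in WT. The highest array was WT replicate 4 and the lowest was DGTT2 replicate 4, with WT replicate 2 close above it, so the range within WT was wider than the gap between the means. The means were 11.01 ± 0.59 in DGTT2 and 11.34 ± 0.78 in WT (SD, n = 4 each), a log2 difference of -0.33 (95% interval -1.23 to 0.58, limma adjusted p = 0.852). Both slides gave nearly the same value, -0.33 on slide 1 and -0.32 on slide 2. Without WT replicate 4 the difference was -0.02, and without WT replicate 2 it was -0.63.

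FAR1 stood out by its spread within the genotypes. Its pooled SD was 0.69, above that of 97.9% of the 1000 features nearest to it in mean level, whose median was 0.17. CER4, with 0.53 against a median of 0.23 for its own 1000 nearest features, was above 91.9% of them, and FAR5, with 0.58 against 0.34, above 91.5%. MS2, FAR6 and FAR7 were near the middle, at the 56.2, 54 and 50.5 percentile. FAR4 was at the 82.4 percentile and FAR8 at the 65.

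FAR4, the remaining suberin member, was dim, and its difference between the genotypes was not the same on both slides. Its values were 5.99, 5.72, 6.79 and 5.88 in DGTT2, against 5.29, 5.90, 5.31 and 5.88 in WT. DGTT2 replicate 3 was by far the highest array, and the other DGTT2 arrays lay near the 2 upper WT arrays. The means were 6.09 ± 0.48 in DGTT2 and 5.59 ± 0.34 in WT (SD, n = 4 each). The log2 difference was 0.50 (SE 0.25, 95% interval -0.06 to 1.06, limma adjusted p = 0.536), and 0.27 without DGTT2 replicate 3. It was 1.09 on slide 1 and -0.09 on slide 2, and this gap between the slides had an unadjusted p = 0.0108 and an adjusted p = 1 over all features (limma, a term for genotype by slide chosen after the values were seen). For that term 2.33% of features had an unadjusted p under 0.05.

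DGTT2 replicate 3, the array with the highest FAR4 value, was also the highest array for 8 of 18 other suberin genes, or 44.4%, beside 11.5% of all features. This count was chosen after the values were seen. GPAT5, an acyltransferase that joins suberin acids to glycerol, was at 8.76 in that array, against 6.10 to 6.70 in the other DGTT2 arrays and 6.35 to 7.25 in WT. CYP86A1, which makes omega-hydroxy acids of suberin, was at 8.27 there, against 5.37 to 6.37 in the other DGTT2 arrays and 5.13 to 6.62 in WT. FACT and ASFT, which join phenolic acids to fatty alcohols and to hydroxy acids, were highest there too, at 6.29 and 9.79. FAR5 in the same array was at 7.74 and FAR1 at 10.64, neither of them the highest of its genotype.

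**Figure D2:**
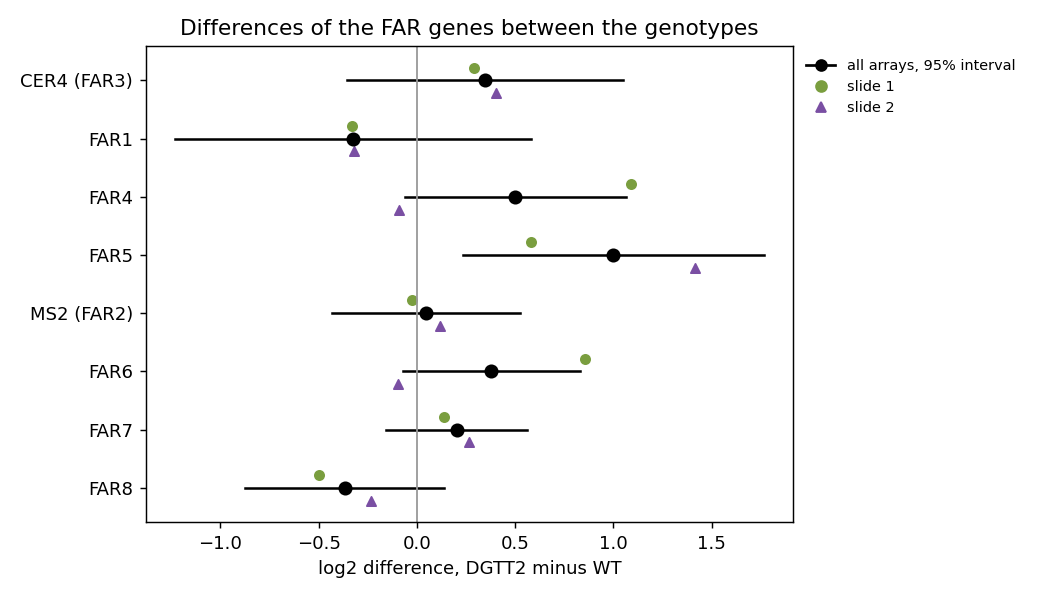
Log2 difference, DGTT2 minus WT, of each FAR gene over all arrays (black points, with the 95% interval of the fit) and on each slide alone (green circles for slide 1, purple triangles for slide 2). FAR5 is the gene whose interval, 0.23 to 1.76, lies to the right of 0, and FAR4 and FAR6 are near 0 on slide 2 (-0.09 and -0.10) and higher on slide 1 (1.09 and 0.86).

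MS2, the pollen wall enzyme, was at the level of pseudogenes in both genotypes. Its values were 6.41, 5.68, 6.34 and 6.56 in DGTT2, against 6.54, 5.82, 6.26 and 6.19 in WT. The lowest array of each genotype was replicate 2, and the ranges nearly coincided. The means were 6.25 ± 0.39 in DGTT2 and 6.20 ± 0.30 in WT (SD, n = 4 each), and the log2 difference was 0.04 (95% interval -0.43 to 0.52, limma adjusted p = 0.969). The 12 genes listed for sporopollenin, the polymer of the pollen wall, had 0 members that passed (0 at an unadjusted p under 0.05, limma), and 3 of 12 had a higher mean in DGTT2, beside 49.7% of all features.

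FAR6, a plastid enzyme, was dim as well, and its measured difference between the genotypes varied by slide in the same way as that of FAR4. Its values were 6.56, 5.84, 6.19 and 5.82 in DGTT2, against 5.61, 6.12, 5.42 and 5.74 in WT. Both slide 1 arrays of DGTT2 lay above all WT arrays, while the slide 2 arrays of DGTT2 lay among them. The means were 6.10 ± 0.35 in DGTT2 and 5.72 ± 0.29 in WT (SD, n = 4 each), and the log2 difference was 0.38 (SE 0.20, 95% interval -0.07 to 0.83, limma adjusted p = 0.560), with 0.86 on slide 1 and -0.10 on slide 2. The term for genotype by slide, chosen after the values were seen, had an unadjusted p = 0.00969 and an adjusted p = 1 (limma). Of all features 2.33% had an unadjusted p under 0.05 for that term.

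FAR7 and FAR8 were dim too, and neither passed. FAR7 was at 5.27, 5.12, 5.70 and 5.59 in DGTT2, against 5.16, 5.03, 5.52 and 5.15 in WT. These values lay around the lower quartile of pseudogenes and overlapped throughout, with a log2 difference of 0.20 (95% interval -0.16 to 0.56, limma adjusted p = 0.736). FAR8 was at 5.63, 6.49, 6.08 and 5.60 in DGTT2, against 6.31, 5.91, 6.41 and 6.65 in WT. Here 3 of 4 WT arrays lay above 3 of 4 DGTT2 arrays, and the arrays numbered 2 went the other way in both genotypes. The means were 5.95 ± 0.42 in DGTT2 and 6.32 ± 0.31 in WT (SD, n = 4 each), and the log2 difference was -0.37 (95% interval -0.87 to 0.14, limma adjusted p = 0.633), and -0.55 without DGTT2 replicate 2.

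The 95% interval lay within 2-fold in both directions for 4 of the 8 members (MS2, FAR6, FAR7 and FAR8), beside 91.9% of all features. All 4 were dim, so these narrow intervals describe signal near the level of pseudogenes. With slide as a fixed block 0 of 8 members passed, where 0.227% of all features did, and FAR5 had an adjusted p = 0.313 (limma). In each of the 19 other settings 0 members passed at the same threshold. FAR5 had log2 differences of 0.58 to 1.41 over these settings, CER4 0.11 to 0.53, FAR7 0.11 to 0.31, FAR1 -0.63 to -0.02 and FAR8 -0.55 to -0.23.

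Within the genotypes FAR1, FAR5 and FAR8 shared their extreme arrays in part. DGTT2 replicate 2 was the highest DGTT2 array for all 3 genes, at 11.64, 8.61 and 6.49. WT replicate 2 was the lowest WT array for all 3, at 10.43, 5.95 and 5.91, and WT replicate 4 the highest, at 12.24, 7.41 and 6.65. In DGTT2 replicate 1 they parted, with FAR1 0.36 above its genotype mean, FAR5 at -0.31 and FAR8 at -0.32. After each genotype's mean was taken away, Pearson's r over the 8 arrays was 0.83 for FAR1 with FAR5, 0.89 for FAR5 with FAR8 and 0.68 for FAR1 with FAR8. The arrays share slides, the pairs were picked from 28 after the values were seen, and r is given as a description. Without both arrays numbered 2, r over the 6 left was 0.61, 0.61 and 0.17 in the same order, so the likeness rests in large part on those arrays. Without that adjustment FAR5 with FAR8 had r = 0.19 over the 8 arrays, since the mean of FAR5 was higher and that of FAR8 lower in DGTT2. FAR4 and FAR6 had r = 0.68 over the 8 arrays, 0.52 after the genotype means were taken away and 0.26 without both arrays numbered 2. After the genotype means were taken away, the most negative pairs were FAR5 with FAR6 (r = -0.60) and FAR6 with FAR8 (-0.50), and MS2 with FAR7 had 0.58. CER4 was not closely tied to any other member, with r between -0.24 and 0.43 after the genotype means were taken away.

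**Figure D3:**
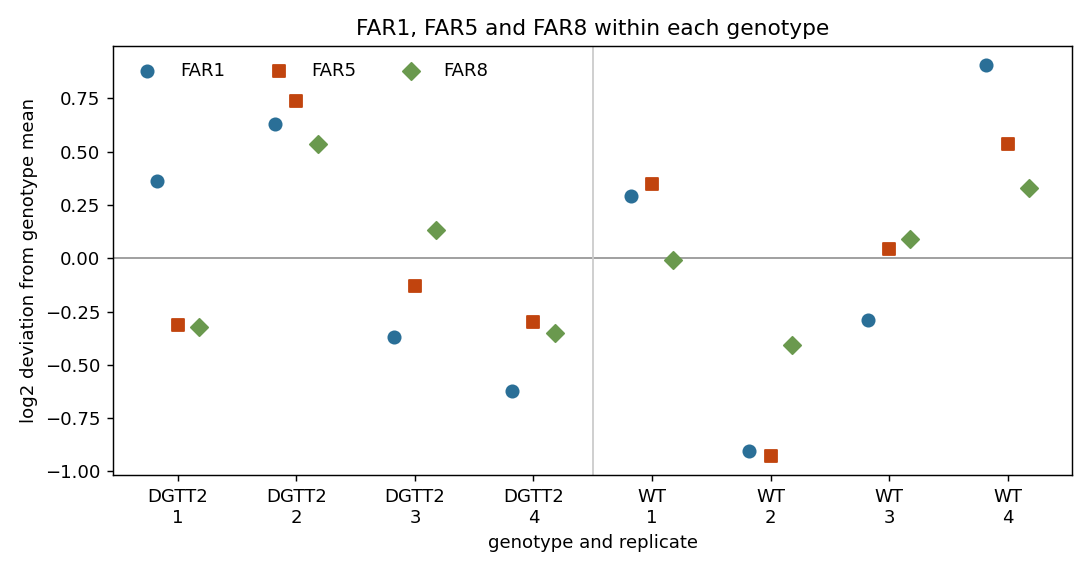
Deviation of FAR1 (blue circles), FAR5 (red squares) and FAR8 (green diamonds) from the mean of their genotype, on the log2 scale, in the 4 DGTT2 arrays and the 4 WT arrays. All 3 genes are at their highest of the genotype in DGTT2 replicate 2 and at their lowest in WT replicate 2.

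FAR4, FAR5 and FAR8 are direct neighbours on chromosome 3 in the order of the RefSeq table (TAIR10.1), and their differences between the genotypes did not share a sign. FAR4 and FAR5 had log2 differences of 0.50 and 0.999, and FAR8 had -0.37. With the genotype means taken away, FAR5 and FAR8 had r = 0.89 over the 8 arrays, the highest of the 28 pairs, while FAR4 had -0.36 with FAR5 and -0.06 with FAR8. FAR7 and FAR1 lie near each other on chromosome 5 with 7 measured loci between them, and had r = -0.44. The sources used here do not give the probes behind each feature, so signal shared between members of like sequence was not tested.

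Loci beside the FAR genes were read for their own differences. Of the 24 loci made up of the 2 measured on each side of a member, or of the run of 3 members, 0 passed, with log2 differences of -1.22 to 0.48. At an unadjusted p under 0.05 (limma) 3 of 24 did, near the 10.5% of all features. The lowest was AT4G33800, directly after CER4, which had 6.47, 6.97, 6.14 and 6.12 in DGTT2, against 7.46, 7.42, 7.91 and 7.80 in WT. Its genotypes did not overlap and it missed the threshold (adjusted p = 0.0882, and 0.0687 with slide as a block, limma). The next locus, AT4G33810, was higher, at 9.28 in DGTT2 and 8.81 in WT (adjusted p = 0.199, limma), also without overlap. HIRA, a histone chaperone just before FAR4, was at 11.90 in DGTT2 and 12.14 in WT (adjusted p = 0.443, limma). The 2 loci before CER4 had log2 differences of 0.01 and 0.19.

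Among 25 other genes of cuticular wax 0 passed, and the median log2 difference was -0.01. By limma 3 of 25 had an unadjusted p under 0.05, 2 higher and 1 lower, near the 10.5% of all features. WSD1, which joins the alcohols that FAR enzymes make to fatty acids as wax esters, was at 9.08, 7.70, 8.60 and 8.39 in DGTT2, against 6.67, 6.06, 7.19 and 6.04 in WT. Every DGTT2 array of WSD1 lay above every WT array, and it missed the threshold without a block (adjusted p = 0.0924) and was called once slide was a block (adjusted p = 0.018, limma). The order of the arrays was not that of CER4, since WSD1 was low and CER4 high in WT replicate 4. CER1-LIKE1, a relative of the alkane enzyme CER1, had a log2 difference of 0.84 (adjusted p = 0.192, limma), and MYB94, a regulator of wax genes, one of -0.36 (adjusted p = 0.298, limma), and neither passed.

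Of 18 other suberin genes 0 passed, and the median log2 difference was 0.02. By limma 3 had an unadjusted p under 0.05, 1 higher and 2 lower, where all features gave 10.5%, and 9 of 18 had a higher mean in DGTT2, where all features gave 49.7%. KCS2, which lengthens the acyl chains that become suberin, was at 12.07 in DGTT2 and 11.75 in WT (adjusted p = 0.286, limma). MYB92, a regulator of suberin genes, was at 6.55 in DGTT2 and 6.95 in WT, and LTPG15, a lipid transfer protein, at 7.60 in DGTT2 and 8.16 in WT. In the sporopollenin list the smallest p-values were those of TKPR2, TDF1 and CYP704B1, with log2 differences of 0.30, -0.22 and -0.28.

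**Figure D4:**
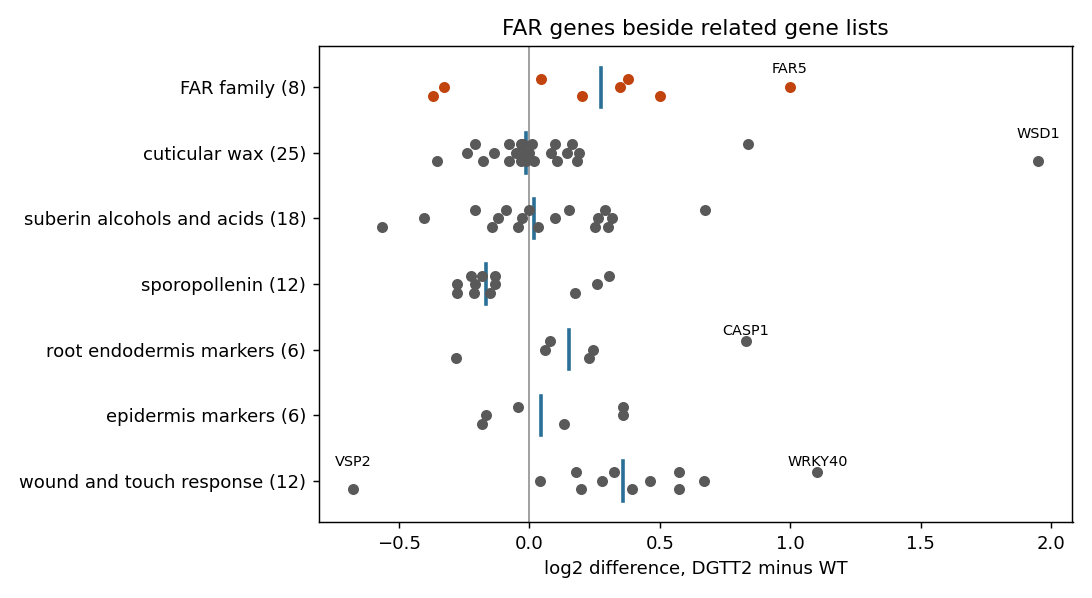
Log2 difference, DGTT2 minus WT, of every gene in the FAR family (red) and in 6 related lists (grey), with the number of genes in parentheses and a blue bar at each list's median. The FAR median of 0.27 lies between those of the root endodermis markers (0.15) and the wound and touch genes (0.36), while the wax, suberin and epidermis medians lie within 0.05 of 0.

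Wounding is a known trigger of FAR1, FAR4 and FAR5, so 12 genes of wound and touch response were read beside them. Of these 0 passed, and 2 of 12 had an unadjusted p under 0.05 (limma), 1 higher and 1 lower, where 10.5% of all features did. On average 11 of 12 were higher in DGTT2, where 49.7% of all features were. The median log2 difference was 0.36. Their means per array were 12.56, 12.35, 12.39 and 12.83 in DGTT2 replicates 1 to 4, against 12.35, 12.87, 11.83 and 11.71 in WT. WT replicate 2, the highest WT array of the list, was the lowest WT array for FAR1 and FAR5 and the highest for FAR4. WT replicate 4, the lowest of the list, was the highest WT array for FAR1 and FAR5 and was close to the highest for FAR4, and the part of wounding in the FAR levels was not tested. VSP2, a storage protein under jasmonate control, was at 10.13 in DGTT2 and 10.80 in WT (adjusted p = 0.143, limma), without overlap. TCH3, a touch-induced calmodulin-like gene, and JAZ10, a repressor of jasmonate response, had log2 differences of 0.28 and 0.57.

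The other marker lists gave 1 call, where 0.0725% of all features were called. GRP18, a pollen coat protein of the tapetum list, was higher in DGTT2, at 7.00 against 5.81 in WT (adjusted p = 0.0109, limma). Its WT mean lay below the median level of pseudogenes (5.95) and its DGTT2 mean just above their upper quartile (6.89), so its signal was dim. A7 and GRP17 of that list had log2 differences of -0.56 and 0.34 and did not pass. In the tapetum list 2 of 6 markers had a higher mean in DGTT2, beside 49.7% of all features, and the median log2 difference was -0.16. MS2, which acts in the same tissue, had 0.04. The epidermis, where CER4 is active, had 0 of 6 markers that passed, with HTH, ATML1 and PDF2 at 0.36, -0.18 and -0.17 and means per array of 13.68 to 14.07 in DGTT2 and 13.68 to 13.78 in WT. The highest of these means, in DGTT2 replicate 1, was on the array with the highest CER4 value, and the part of epidermal tissue in the CER4 level was not tested. In the mesophyll list CA1, RCA and LHCB2.1 had 0.14, -0.08 and -0.06, and 0 of 6 passed. Most of this list lay near the highest value of the arrays (15.99), so small differences there do not show that mesophyll RNA was equal.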

How the data were processed

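RNA of 8 leaf samples was labelled with Cy3 and hybridised to NimbleGen 4-plex arrays, 1 array per sample, per the labels' protocols. The deposited table holds values of 30361 features, read as log2 from their range of 4.20 to 15.99. The submitters' processing notes name RMA and Partek, and the sources used here do not give their settings, the probes or the annotation build. RMA makes the arrays nearly equal in distribution, which hides a common shift of most genes, and log2 differences of dim features may be understated. Precision is limited by the number of arrays. All 8 columns were mapped by sample name, and none was left unmapped.

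Genotypes were compared with limma 3.58.1 under R 4.3.3 (lmFit, then eBayes, with no term beside genotype, two-sided), adjusted by the Benjamini-Hochberg method over all features. A feature was called at an adjusted p under 0.05. The script was tested on simulated data. No feature was filtered out. Symbols, biotypes and the order of loci came from the RefSeq table of TAIR10.1, in which 29976 features had a locus, and no coordinates are given. The members and the 8 other lists, with 91 loci, were chosen with earlier results of these data known. Named were all members, the 3 genes of smallest p in each list, those that passed, neighbours at an unadjusted p under 0.05 and the 3 features most like CER4 and like the member of smallest p. GPAT5, CYP86A1, FACT, ASFT, MYB9 and MYB41 were chosen after their values were seen. A planned comparison of protein sequences was not run here.

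The alternatives tried were quantile normalization of the table, median centring, cyclic loess, a filter at the lower quartile of mean level, slide as a block (fixed, or random with statmod 1.5.0), the slides taken singly, a block for replicate number, trend with robust in eBayes, array weights, 1 array left out at a time and a threshold of 0.1. A term for genotype by slide and correlations without both arrays numbered 2 were added after the data were seen.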

Additional observations from a re-analysis of the deposited data

Results flagged for a closer look

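A single array lay far from the other 3 of its genotype in 5 of the 96 groups checked (48 named genes in 2 genotypes), by Dixon's test at the 95% level. The 1 in 20 groups that chance flags is no yardstick here, since some genes were named for their values. MYB9 and MYB41 were chosen after their values were seen, and AT5G26250 for its likeness to FAR5 over the same arrays. None of the 8 FAR genes was flagged. KCS2 was at 12.20 in DGTT2 replicate 3, against 12.01 to 12.03 in the other DGTT2 arrays. MYB9, a suberin regulator, was at 7.04 in DGTT2 replicate 3, against 6.15 to 6.29, and RCA, the activase of Rubisco, at 15.68 in the same array, against 15.96 to 15.97. The other RCA values lay just below the highest value of the arrays, 15.99, where there is little room for spread. MYB41, another suberin regulator, was at 5.61 in WT replicate 2, against 6.39 to 6.51 in the other WT arrays. AT5G26250, one of the features most like FAR5, was at 7.16 in DGTT2 replicate 2, against 6.78 to 6.82.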

How the results depend on the processing

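The count of FAR genes called, 0 of 8, was the same in every setting that was run, the threshold of 0.1 included. FAR1, CER4, FAR5, FAR7 and FAR8 kept the sign of their difference in all settings that measured them. MS2 turned to -0.025 on slide 1 alone, and with 1 array left out its difference ran from -0.083 to 0.23, turning below 0 without DGTT2 replicate 1 (-0.008), DGTT2 replicate 4 (-0.060) or WT replicate 2 (-0.083). FAR4 and FAR6 turned to -0.090 and -0.097 on slide 2 alone. Without features below the lower quartile of mean level, 3 of the 8 members were left (FAR1, CER4 and FAR5), 2 of them with a higher mean in DGTT2. Over all features the 22 calls became 118 at a threshold of 0.1, 13 with median centring, 69 with slide as a fixed block, 46 with trend and robust, and 1 on each slide alone, where 2 arrays face 2. With 1 array left out they ran from 5 to 39. The list genes called were 1 (GRP18), and 2 (also WSD1) with slide as a block. With the replicate number as a block 3 features passed and FAR members stayed at 0. Same-numbered arrays of the genotypes correlated by -0.03 to 0.20 in their deviations and 2 of 8 arrays correlated best with their own number, so the numbers were not taken to pair samples. Replicates 1 and 3 lay on slide 1 and replicates 2 and 4 on slide 2. Dim signal limits what MS2, FAR4, FAR6, FAR7 and FAR8 can show.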

Other observations

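The features whose values over the 8 arrays were most like those of FAR5 were MYB83, a regulator of secondary walls, with Pearson's r = 0.98, PMSR3, of the methionine sulfoxide reductases, with 0.97, and AT5G26250 with 0.97. MYB83 averaged 7.91 in DGTT2 and 7.50 in WT. In all, 30 features had r over 0.9 with FAR5. For CER4 the closest were AT3G23090, PLC4 and AT1G27570, each with r = 0.98, and 79 features had r over 0.9. PLC4, of the phospholipases C, averaged 11.36 in DGTT2 and 11.22 in WT. These are the highest of 30361 correlations over 8 arrays and are given as a description.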
